A study of Zea mays with 4 samples.

Results

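NKD1 and NKD2 are paralogous maize transcription factors of the INDETERMINATE DOMAIN (IDD) family, and the sites described here are those where both proteins bound the same short stretch of DNA but where the called summits, the bases at which a binding event is placed, were not next to each other. For each NKD1 peak the nearest NKD2 summit on the same chromosome was taken, and a pair was kept when the summits lay at most 100 bp apart and their distance was not 1 bp. This gave 384 displaced pairs among 1951 NKD1 peaks and 56855 NKD2 peaks, or 19.7% of the NKD1 list. The 384 pairs made up 20.3% of the 1895 NKD1 peaks with an NKD2 summit within 100 bp. The other 1511 of these had summits exactly 1 bp apart and are used below for comparison. The members were chosen by the measured distance between the summits, so the distances are given as a description. The signals were not part of the choice, but the nearest NKD2 summit was taken, so no further NKD2 summit can lie closer to NKD1 than a member's own distance, which limits the counts of neighbouring summits.

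The series measured binding by DNA affinity purification sequencing (DAP-seq) for 4 factors, with 1 library per factor, and its lists held 67130 peaks in all. Each protein was made in vitro with a HALO tag, fixed to magnetic beads and mixed with sheared, naked genomic DNA from B73 maize seedlings aged 14 days, which was read as paired reads of 150 bp for NKD1 and NKD2. Sites were therefore bound without chromatin, and in DNA from seedlings rather than endosperm. Each factor has a single library, read totals were not used here, and no difference below has a replicate check; intervals are 95% Wilson intervals for shares and order-statistic intervals for medians, and they cover counting error only.

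IDD proteins are plant transcription factors that contact DNA through C2H2 zinc fingers, and the family takes its name from the maize flowering regulator INDETERMINATE1. In the endosperm, the NKD pair limits the aleurone, the outer cell layer of the tissue, and promotes the filling of the starchy interior with starch and storage protein. The proteins can form pairs with themselves and with each other. The peak caller used for these data, GEM, models the shape of the read pile-up and uses recurring short sequences to place an event, so a summit is a modelled base and not a directly observed one.

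The displaced summits lay mostly close together. The median distance was 15 bp, with quartiles of 8 and 32 bp, and 227 pairs (59.1%, 54.1 to 63.9%) were 2 to 20 bp apart. A further 49 pairs were 21 to 30 bp apart, 66 were 31 to 60 bp apart and 33 were 61 to 100 bp apart. Every distance from 2 to 56 bp was held by at least 1 pair, the first empty distance was 57 bp, and 21 of the 99 distances from 2 to 100 bp were empty. Neither direction along the chromosome prevailed, since the NKD1 summit was at the higher coordinate in 184 pairs and at the lower in 191. The files give no strand for any peak, so a direction relative to the bound sequence was not available.

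**Figure D1:**
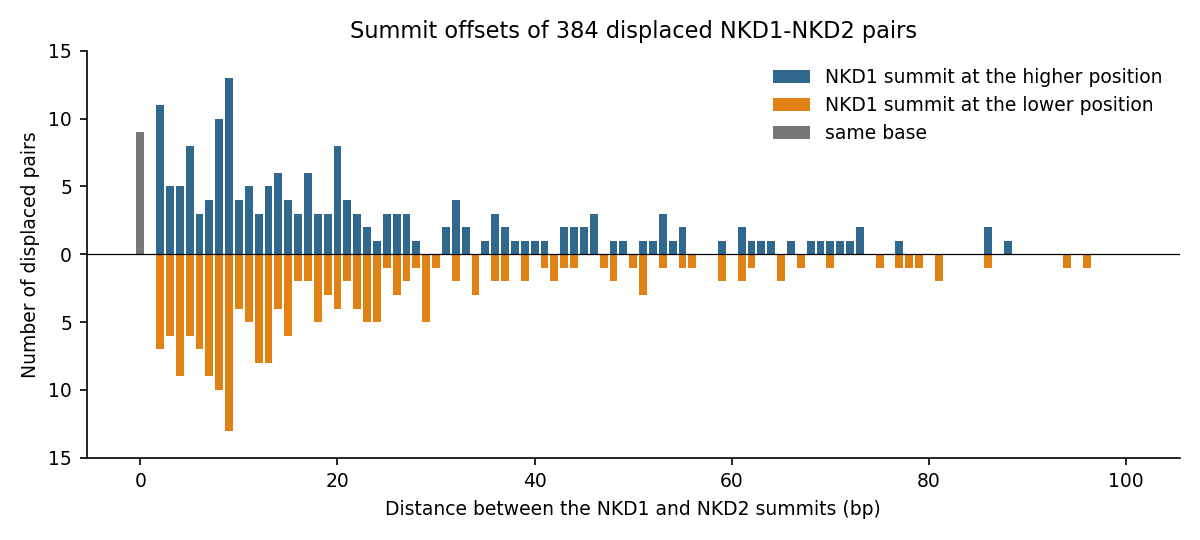
Number of displaced pairs (vertical axis) at each distance between the NKD1 and NKD2 summits in bp (horizontal axis), drawn upward where the NKD1 summit had the higher coordinate and downward where it had the lower; the grey bar is the 9 pairs at the same base and 1 bp is left out by the rule. The tallest bars are at 9 bp, with 13 pairs in each direction, and the bars thin out beyond 30 bp.

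The most frequent distance in the full lists was 9 bp, followed by 8 bp. There were 26 pairs at 9 bp (6.77%, 4.66 to 9.74%), and these fell evenly, with 13 on each side. The 20 pairs at 8 bp also fell evenly, with 10 on each side. Together both distances held 46 pairs (12.0%, 9.10 to 15.6%), beside 13 pairs at 7 bp and 8 at 10 bp. From 10 to 20 bp the median was 10 pairs per distance. The next most frequent distances were 2 bp with 18 pairs (4.69%, 2.99 to 7.29%), 4 and 5 bp with 14 each, and 7 and 13 bp with 13 each. The intervals at 2, 8 and 9 bp overlapped, and the order was not stable: 2 bp led with 14 pairs against 13 at 9 bp in the strongest 50% of each list, and 5 and 9 bp tied at 6 pairs when a q-value of 0.0001 or less was required in both lists.

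A distance of 11 bp was not a frequent one. It held 10 pairs (2.60%, 1.42 to 4.73%), 5 on each side, as many as 6, 14 and 15 bp. The median NKD1 signal of these pairs was 22.95 (19 to 256), against 24 (23 to 25) for all members. However, the first and second strongest NKD1 peaks of the whole list were both 11 bp from their NKD2 summit. The other 8 pairs at 11 bp had NKD1 signals of 13 to 34, so the strength of those 2 sites was not shared by the rest.

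At the edges of the rule the counts changed abruptly on the short side and gradually on the long side. Summits at the same base were found in 9 pairs and summits 2 bp apart in 18 pairs, against 1511 pairs at the 1 bp that the rule leaves out. The most distant members were 96 and 94 bp apart, with NKD1 signals of 19.6 and 23 and NKD2 signals of 25.4 and 43.5. Just outside the limit, 14 NKD1 peaks had their nearest NKD2 summit up to 157 bp away, and the nearest 2 of these, both only just beyond it, had NKD1 signals of 30 and 24 and NKD2 signals of 66 and 14. No member had its nearest NKD2 summit tied between 2 positions.

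Distances as short as these were almost never seen between summits of the NKD2 list itself. Of 403 pairs of NKD2 summits within 100 bp of each other, 6 were within 30 bp and none was at 8 or 9 bp, whereas 276 displaced pairs were 2 to 30 bp apart. Within the NKD2 list the most frequent spacing within 100 bp was 78 bp, with 33 pairs. The NKD2 spacings come from a single called list and the displaced distances from 2 separate lists, so these counts are not directly comparable, and how closely the caller can place 2 events of 1 list was not tested.

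In strength the displaced pairs were spread over the whole NKD1 list but ranked high in the NKD2 list. The signal is the strength that GEM gives an event; it is not scaled between libraries, so strengths are compared as percentiles within each list, from weak to strong. The median NKD1 signal of the members was 24 (quartiles 20 and 30, range 12.5 to 423), which was also the median of all NKD1 peaks. The median NKD2 signal was 68 (quartiles 41.6 and 103.1, range 10 to 618), against 21 for all NKD2 peaks. As percentiles, the members' medians were 47.7 in NKD1 (41.1 to 53.7) and 96.7 in NKD2 (95.7 to 97.1). Pairs 1 bp apart had medians of 53.7 (47.7 to 53.7) and 96.9 (96.5 to 97.1), so the intervals of both groups met or overlapped in each list.

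The share of strong events differed little from that of the other shared sites in NKD1 and was somewhat lower in NKD2. Among the members, 41 of 384 (10.7%, 7.97 to 14.2%) were in the strongest 10% of the NKD1 list, where all 1895 shared pairs gave 10.6%. In the strongest 10% of the NKD2 list were 279 members (72.7%, 68.0 to 76.9%), where all shared pairs gave 77.4%, and for pairs 1 bp apart this share was 78.6% (76.4 to 80.6%). The members' interval lay below the 77.4% but overlapped that of pairs 1 bp apart. A q-value of 0.0001 or less in NKD1 was reached by 87 members (22.7%, 18.8 to 27.1%), with 24.8% over all shared pairs. In NKD2 that limit was reached by 363 members (94.5%, 91.8 to 96.4%), with 96.3% over all shared pairs. Both q-value shares were close to those of the shared sites as a whole.

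The distance itself went with the NKD1 signal. Of the 276 members 2 to 30 bp apart, 39 (14.1%, 10.5 to 18.7%) were in the strongest 10% of the NKD1 list, and of the 99 members 31 to 100 bp apart, 1 (1.01%, 0.179 to 5.50%). A q-value of 0.0001 or less in NKD1 was reached by 26.4% of the former (21.6 to 32.0%) and 12.1% of the latter (7.07 to 20%). The median NKD1 percentile was 53.7 (41.1 to 63.6) at 2 to 30 bp and 37.1 (27.5 to 47.7) at 31 to 100 bp, intervals that overlapped. In NKD2 the median percentile was 97.0 (96.4 to 97.7) at the shorter and 94.0 (91.3 to 96.7) at the longer distances, intervals that also overlapped. The share in the strongest 10% of the NKD2 list was 75.7% (70.3 to 80.4%) at the shorter distances. At the longer ones it was 63.6% (53.8 to 72.4%), again with overlap. Over the 384 pairs, the distance had a Spearman's rho of -0.21 with the NKD1 percentile and -0.13 with the NKD2 percentile; these are weak, describe pairs from the same 2 libraries, and carry no p-value. Whether the position of a weak event is less exactly placed by the caller was not tested.

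**Figure D2:**
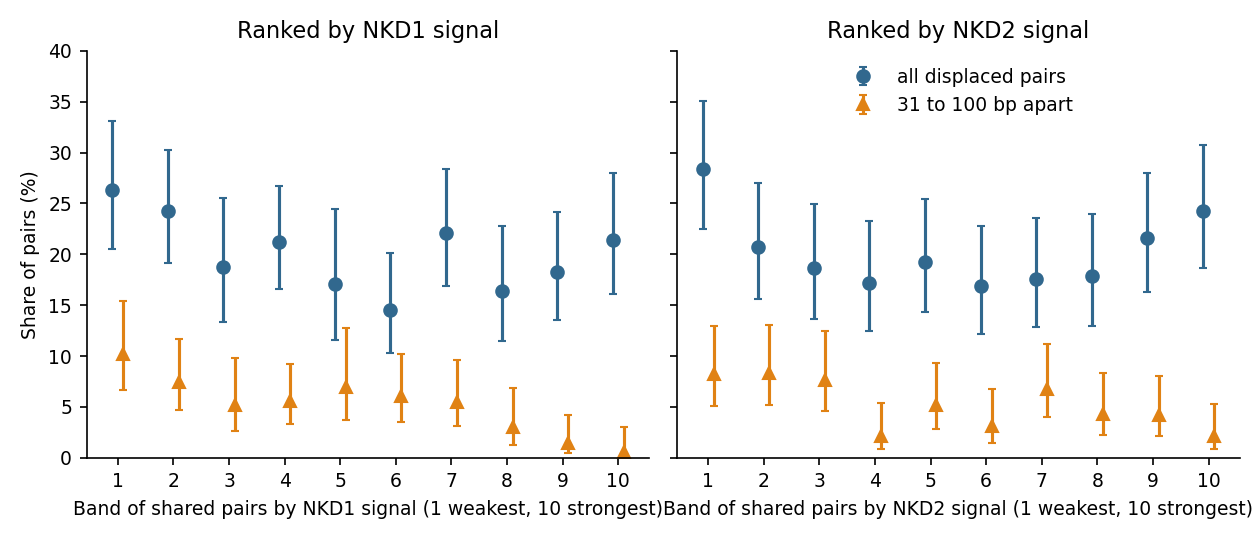
Share of the shared pairs in percent (vertical axis) that were displaced (circles) or 31 to 100 bp apart (triangles) in each of 10 bands of the pairs, ranked by NKD1 signal on the left and by NKD2 signal on the right (horizontal axes, 1 weakest); bars are 95% Wilson intervals. On the left the triangles fall from 10.2% in the weakest band to 0.549% in the strongest, while the circles show no steady fall. On the right the triangles stand at 8.25% in the weakest band and 2.11% in the strongest.

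Seen from the whole set of shared pairs, long distances became rare toward the strong end of the NKD1 list. When the 1895 pairs were ranked by NKD1 signal and cut into 10 bands of equal rank width, which held 129 to 250 pairs because of tied signals, 19 of 186 pairs in the weakest band were 31 to 100 bp apart (10.2%, 6.64 to 15.4%). In the strongest band this was 1 of 182 (0.549%, 0.0971 to 3.05%). These intervals did not overlap. Displaced pairs as a whole showed no such fall, with 26.3% (20.5 to 33.1%) in the weakest band, 14.6% (10.3 to 20.1%) in the sixth and 21.4% (16.1 to 27.9%) in the strongest. Ranked by NKD2 signal, displaced pairs made up 28.4% (22.5 to 35.1%) of the weakest band, 16.8% (12.2 to 22.8%) of the sixth and 24.2% (18.7 to 30.8%) of the strongest. Short displacements were thus found at both ends of the range of signals.

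Among the distance classes, which were set after the distances had been seen, the pairs 2 bp apart ranked highest. Their 18 NKD1 events had a median percentile of 70.4 (63.6 to 83.0) and their NKD2 events one of 98.9 (95.7 to 99.7). The 46 pairs at 8 or 9 bp had medians of 49.2 (34.3 to 67.2) in NKD1 and 97.1 (94.7 to 97.9) in NKD2, close to those of all members. For the 66 pairs at 31 to 60 bp the NKD1 median was 32.8 (20.96 to 47.7), and the interval at 2 bp lay above it.

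The 4 strongest NKD1 peaks of the list were all displaced, and the fifth, with a signal of 186, was 1 bp from its NKD2 summit. Of the 10 strongest NKD1 peaks 5 were displaced (50%, 23.7 to 76.3%), and of the 50 strongest 11 were (22%, 12.8 to 35.2%). The interval of the former lay above the 19.7% of the whole list and that of the latter included it, and 10 peaks are too few to fix a share. Of the 100 strongest NKD2 peaks 96 were paired and 21 were in displaced pairs, a share near the 20.3% of all shared pairs.

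Coordinates are given for build v4 of the B73 genome, 1-based, as the interval centred on the NKD1 summit; genes and sequence at these sites were not analysed here. The strongest site was on chromosome 1 from 162081744 to 162081944, first in both lists, with an NKD1 signal of 423 and an NKD2 signal of 618, and its NKD2 summit was 11 bp lower. The second, on chromosome 1 from 133703828 to 133704028, had an NKD1 signal of 256 and an NKD2 signal of 177, again with the NKD2 summit 11 bp lower. The latter site was second in NKD1 and place 76 in NKD2.

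Both peaks tied at the next NKD1 signal, 205, were displaced as well. On chromosome 7 from 44977058 to 44977258 the NKD2 summit was 5 bp higher and had a signal of 120, place 312 of its list. On chromosome 2 from 83615299 to 83615499 both summits were at the same base and the NKD2 signal was 140. At these 2 sites and at the second strongest one, the NKD1 event was the larger of the pair, although NKD1 signals were usually the smaller: over all shared pairs the median ratio of NKD1 to NKD2 signal was 0.373.

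The remaining 6 of the 10 strongest members had NKD1 signals of 63 to 155. On chromosome 5 from 164734357 to 164734557 the signals were 155 in NKD1 and 172 in NKD2, at 20 bp. On chromosome 4 from 27139730 to 27139930 they were 98 and 298, at 21 bp, and on chromosome 8 from 176871514 to 176871714 they were 88 and 268, at 2 bp. The sites on chromosomes 4 and 8 ranked alike in both lists, at places 11 and 19 of NKD1 and 10 and 13 of NKD2. On chromosome 3 from 170092007 to 170092207 the signals were 85 and 215, at 5 bp. The last 2 were on chromosome 7 from 91024534 to 91024734, with signals of 80 and 88 at 10 bp, and on chromosome 8 from 168209178 to 168209378, with 63 and 60 at 3 bp. These latter sites were at places 29 and 49 of NKD1 but 874 and 2615 of NKD2.

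The strongest pairs at 9, 8 and 2 bp, the most frequent distances, are named next. At 9 bp the highest NKD1 signal was 49, on chromosome 7 from 22665684 to 22665884, with an NKD2 signal of 165, and the next were 37 on chromosome 9 from 77060420 to 77060620 and 37 on chromosome 1 from 305019994 to 305020194, with NKD2 signals of 116 and 71. At 8 bp the highest was 54, on chromosome 9 from 72875342 to 72875542, with an NKD2 signal of 76.7. It was followed by 39 on chromosome 9 from 86682251 to 86682451 and 36.4 on chromosome 1 from 17826628 to 17826828, with NKD2 signals of 104 and 141.7. No pair at 8 or 9 bp was among the 50 strongest NKD1 peaks, but 46 such pairs among 1951 NKD1 peaks are too few for this to mark these distances. Their median NKD1 percentile was 49.2, beside 47.7 for all members. At 2 bp, after the site on chromosome 8 named above, came 42 on chromosome 7 from 73866607 to 73866807 and 39 on chromosome 2 from 214677604 to 214677804, with NKD2 signals of 140 and 201.

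**Figure D3:**
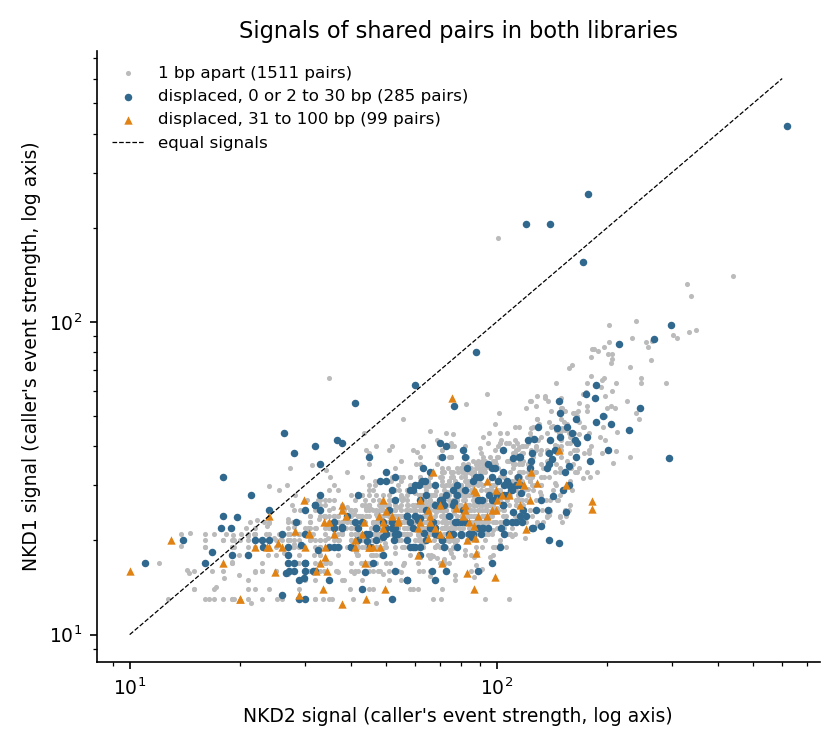
NKD1 signal (vertical log axis) against NKD2 signal (horizontal log axis), both as the caller's event strength, for the 1511 pairs 1 bp apart (grey), the 285 displaced pairs at 0 or 2 to 30 bp (blue circles) and the 99 at 31 to 100 bp (orange triangles); the dashed line marks equal signals. A few blue circles with NKD1 signals of 155 to 423 stand above the main cloud, and 24 displaced pairs lie above the dashed line.

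NKD1 events that outweighed their NKD2 partner were more common among displaced pairs. The NKD1 signal was above the NKD2 signal in 24 of 384 members (6.25%, 4.24 to 9.13%), where all shared pairs gave 2.96%, and in 32 of 1511 pairs 1 bp apart (2.12%, 1.5 to 2.97%); the intervals of the groups did not overlap. Of the 24, 21 were 2 to 30 bp apart, 2 were farther apart and 1 had both summits at the same base. Signals are not scaled between the libraries, so equality of the signals has no meaning of its own, and the count compares groups of pairs under 1 fixed limit. In both groups only the nearest NKD2 event was used, also where a further one lay close. On chromosome 7 from 128446586 to 128446786, for example, the NKD1 signal of 42 exceeded the nearest NKD2 signal of 36.7. A further NKD2 event there had 148.3. The highest ratio among members was 1.78, on chromosome 10 from 98096075 to 98096275, with signals of 32 and 18 at 12 bp. That site also showed the largest gain in percentile from NKD2 to NKD1, from 34.8 to 78.9.

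Ranks in both lists went together about as well as at the other shared sites. The rank correlation of NKD1 with NKD2 signals was 0.608 (Spearman's rho) over the 384 displaced pairs and 0.658 over the 1511 pairs 1 bp apart; it describes pairs from 1 library each. It was 0.604 at 2 to 30 bp and 0.61 at 31 to 100 bp. When each signal was ranked among the 1895 shared pairs, the members' ranks differed by a median of 13 points on a scale of percentiles between NKD1 and NKD2 (10.9 to 15.6), against 14.1 points (13.1 to 15) for pairs 1 bp apart. Large differences were somewhat more frequent, since 28 members (7.29%, 5.09 to 10.3%) differed by over 50 points, where all shared pairs gave 4.64% and pairs 1 bp apart 3.97% (3.10 to 5.08%). These 28 divided evenly, 14 with the higher rank in NKD1 and 14 in NKD2, where all shared pairs gave 2.11% and 2.53%. The largest shift toward NKD1 was 86.4 points, on chromosome 2 from 31286149 to 31286349, with signals of 44 and 26.4 at 15 bp. The largest toward NKD2 was 74.2 points (a shift of -74.2), on chromosome 1 from 206386692 to 206386892, with signals of 19.6 and 147.7 at 24 bp. Measured as percentiles of the full lists, the largest fall from NKD2 to NKD1 was on chromosome 8 from 141637522 to 141637722, from 98.4 to 2.84, with signals of 87 in NKD2 and 14 in NKD1 at 35 bp.

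Most displaced sites had no further NKD2 summit nearby. Another NKD2 summit lay within 50 bp of the NKD1 summit in 4 members (1.04%, 0.406 to 2.65%), where all shared pairs gave 0.686%, although members more than 50 bp apart can have none by the rule. It lay within 100 bp of the NKD1 summit in 11 members (2.86%, 1.61 to 5.06%), where all shared pairs gave 4.64% and the full NKD2 list 1.4%. In pairs 1 bp apart it was 77 of 1511 (5.10%, 4.10 to 6.32%), and these intervals overlapped. Within 200 bp the share was 7.81% of members (30 pairs, 5.53 to 10.9%), with 8.76% over all shared pairs and 4.41% over the full NKD2 list. Within 1 kb it was 17.4% (67 pairs, 14.0 to 21.6%), with 17.6% over all shared pairs and 12.5% over the full NKD2 list. From 100 bp to 1 kb the shares at displaced sites were thus at or below those of all shared sites, with intervals that included them. Shares of the full NKD2 list are measured from NKD2 summit to NKD2 summit and the others from the NKD1 summit. They are therefore not directly comparable.

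**Figure D4:**
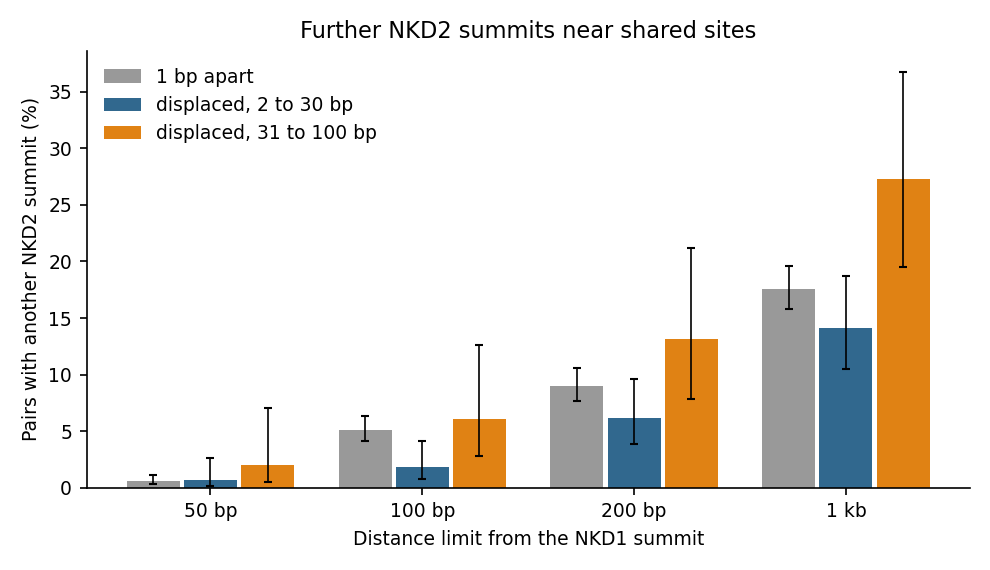
Share of pairs in percent (vertical axis) with at least 1 further NKD2 summit within 50 bp, 100 bp, 200 bp or 1 kb of the NKD1 summit (horizontal axis), for pairs 1 bp apart (grey) and displaced pairs at 2 to 30 bp (blue) and 31 to 100 bp (orange), with 95% Wilson intervals; the 9 pairs at the same base are not drawn. At each limit the orange bar is the tallest, and at 1 kb it stands at 27.3% beside 14.1% for the blue bar.

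The share of pairs with a further NKD2 summit was higher at the longer displacements at each limit, but the intervals were apart only at 1 kb. At 31 to 100 bp, 6 of 99 pairs had another NKD2 summit within 100 bp (6.06%, 2.81 to 12.6%), against 5 of 276 at 2 to 30 bp (1.81%, 0.776 to 4.17%). Within 200 bp there were 13 (13.1%, 7.84 to 21.2%) against 17 (6.16%, 3.88 to 9.64%). Within 1 kb there were 27 (27.3%, 19.5 to 36.8%) against 39 (14.1%, 10.5 to 18.7%).

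In each of the 11 members with another NKD2 summit within 100 bp, the NKD1 summit lay between both NKD2 summits. The 2 NKD2 summits were 50 to 156 bp apart, with a median of 83 bp. In pairs 1 bp apart the further summit was on the opposite side in 40 of 82 cases. These counts are not fully comparable, because a summit on the far side of a displaced NKD2 summit must be closer to it to stay within the limit, and NKD2 summits within 30 bp of each other were rare. None of the 11 further summits had an NKD1 peak of its own within 100 bp, and in 3 of the 11 the further summit had the higher NKD2 signal. For pairs 1 bp apart these counts were 9 and 35 of 82. Up to 200 bp from NKD1, 24 of 31 further summits at displaced sites were on the opposite side and 7 on the same side as the nearest one, against 75 of 145 on the opposite side for pairs 1 bp apart.

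**Figure D5:**
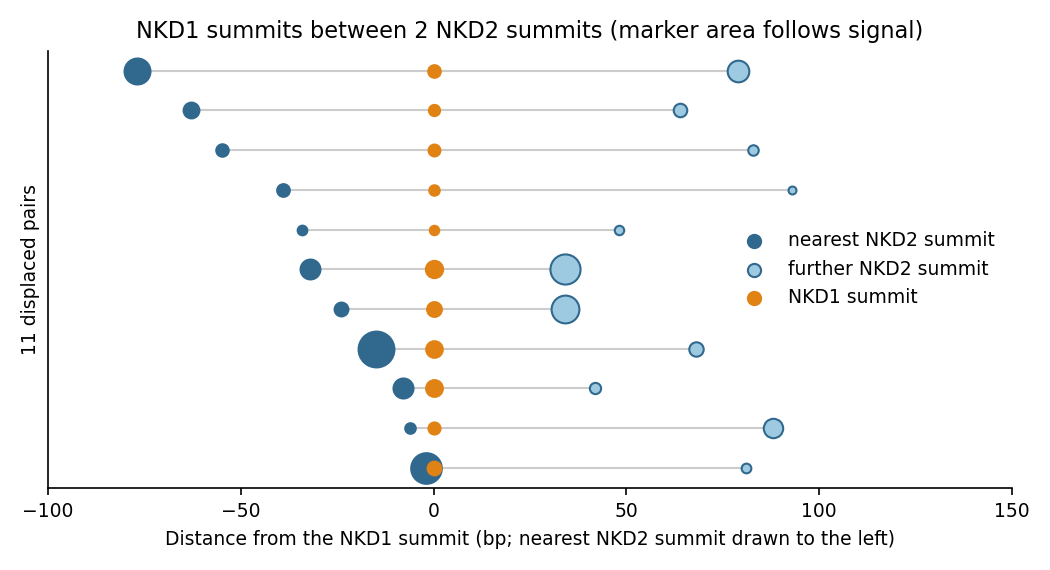
Each row is 1 of the 11 displaced pairs with a second NKD2 summit within 100 bp, placed by distance from the NKD1 summit in bp (horizontal axis) with the nearest NKD2 summit turned to the left; marker area follows the signal in that library. In every row the NKD1 summit lies between the 2 NKD2 summits, which are 50 to 156 bp apart.

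A few of these sites show the arrangement. On chromosome 4 from 114222800 to 114223000, an NKD1 event of signal 57 lay 32 bp from an NKD2 event of 75.7 and 34 bp, on the other side, from one of 174.3. On chromosome 7 from 128446586 to 128446786, an NKD1 event of signal 42 lay 24 bp from an NKD2 event of 36.7 and 34 bp from one of 148.3. At the first site the NKD1 summit was nearly midway, and at both the stronger NKD2 event was the farther one. That order was the less usual one, seen in 3 of the 11 members. The most crowded member was on chromosome 4 from 121807775 to 121807975, where an NKD1 event of signal 30.5 had NKD2 events of 129.2, 90 and 60.8 at 77, 79 and 155 bp.

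The signals of neighbouring NKD2 events were not independent of each other. In 28 of the 30 members with a further NKD2 summit within 200 bp, the NKD2 signals there summed to a whole number (within 0.05), although the nearest event's own signal was whole in 4 of the 30. Pairs 1 bp apart showed the same pattern, with whole sums in 115 of 136 and a whole signal of the nearest event in 14 of 136. The 2 events on chromosome 4 above add to 250, those on chromosome 7 to 185, and the 3 events of the most crowded member to 280. Of the 317 members with no further NKD2 summit within 1 kb, 254 (80.1%) had a whole-number NKD2 signal, beside 1017 of 1245 (81.7%) among pairs 1 bp apart. Percentiles here rank each event by its own signal and not by the sum. How the caller divides signal between neighbouring events was not tested.

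A second NKD1 peak was rare at displaced pairs, as it was at all shared pairs. None of the 384 had another NKD1 summit within 100 bp, which allows a share of up to 0.781% (3 counts of 384, in place of a Wilson interval), where all shared pairs gave 0.317%, and 5 members had one within 200 bp (1.30%, 0.557 to 3.01%), where all shared pairs gave 1.48%. In 2 of these the same NKD2 summit was nearest to both NKD1 peaks. That site was on chromosome 1, where NKD1 intervals from 72248349 to 72248549 and from 72248458 to 72248658, with signals of 25.2 and 26.8, lay on both sides of an NKD2 event of 182, at 43 and 66 bp. It is the reverse of the arrangement above, with 1 NKD2 event between 2 NKD1 events.

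Displaced pairs occurred on all 10 chromosomes in similar shares. They made up from 18.5% of the shared pairs on chromosomes 5 and 6 (20 of 108 and 30 of 162 pairs) to 22.6% on chromosome 9 (36 of 159), and all the intervals included the 20.3% of the full set. Pairs at 8 or 9 bp were found on every chromosome, from 1 on chromosome 5 to 9 on chromosome 9. The outer 20% at each end of the chromosomes held 166 members (43.2%, 38.4 to 48.2%), where all shared pairs gave 42.5%. Members were far apart, with a median gap of 3.59 Mb between neighbours, and 2 of these gaps were within 1 kb.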

How the data were processed

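DAP-seq libraries were made for NKD1, NKD2, HB115 and NACTF49, and the NKD1 and NKD2 peak lists were used; of the others only the number of peaks was counted. Per the methods, the authors trimmed reads with Trimmomatic, mapped them with Bowtie2, kept mapping qualities above 30 with SAMtools, called events with GEM, and subtracted events found with HALO-GST and listed problem regions. One list was deposited per sample; whether calling pooled any reads is not given in the sources used here. The methods and the names of both lists give build v4, whereas the series' build label names v3; v4 was used. The deposited lists hold a signal (event strength, not scaled between libraries), −log10 p and −log10 q, the last of which gave the q-value limit, and a display score that was not used for any result. No read totals were used, so depth is unknown here.

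The summit was taken as the interval start plus the summit distance. Percentiles are ranks by signal within a list. Pairing code was tested with simulated NKD1 summits at set distances from real NKD2 summits that had no other within 1 kb. The choice among several nearby summits was not covered by that check. With 1 library per factor no test was run and no p-value is given. Named sites were the 10 members with the highest NKD1 signal, the 3 strongest at each of the 3 most frequent distances from 2 bp upward, the largest percentile changes, the member with the most NKD2 summits within 200 bp, and the values at the limits; other sites were chosen after their values were seen. Members and most comparisons were chosen with earlier results of these data known. The alternatives were other distance limits, other partners, stricter lists, ranking by q-value and leaving out chromosome 5. Sequence, motifs and gene annotation were not analysed here. Analyses used Python 3.11.15, pandas 2.3.3, statsmodels 0.14.6 and matplotlib 3.10.9.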

Additional observations from a re-analysis of the deposited data

How the results depend on the processing

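Of 56 alternatives to 7 results, 42 stayed within counting error (or within 1.5 times for numbers of pairs) and 14 moved further. Several of the 42 could not move. Limits of 50 or 200 bp cannot change the counts at 8, 9 or 11 bp, and keeping mutual nearest pairs dropped only 1 member. The tally is thus not a count of independent checks. Stricter lists moved numbers by construction: a q-value limit of 0.0001 for both lists left 85 displaced pairs, 2 at 11 bp and 10 at 8 or 9 bp, and the strongest 50% of each list left 177, 4 and 23. Displaced pairs were 18.2% and 18.4% of the shared pairs in these lists. Ranked within the shorter lists, the median NKD1 percentile was 55.7 for the q-value limit, and the median NKD2 percentile was 98.5 for the q-value limit and 97.8 for the strongest 50%. The share with another NKD2 summit was 5.88% for the q-value limit, 10.98% when the strongest instead of the nearest NKD2 summit was taken, and 1.04%, 7.81% and 17.4% for limits of 50 bp, 200 bp and 1 kb. Taking the strongest gave 419 displaced pairs. Those it added have a nearer NKD2 summit by construction, which raises that share. The most frequent distance was 9 bp in the full lists, tied at 6 pairs with 5 bp under the q-value limit, and 2 bp (14 pairs, against 13 at 9 bp) in the strongest 50%; summed over 3 neighbouring bases it centred on 8 bp, with 59 pairs. The alternatives for 8 or 9 bp were added after the data were seen. The sequence alternatives were not run, because the sequence of build v4 was not used here. No paired analysis was possible because NKD1 and NKD2 were measured in a single library each. Unknown sequencing depth limits every statement on strength.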

Other observations

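Among the 24 displaced pairs with the NKD1 signal above the NKD2 signal, the NKD1 summit was at the lower coordinate in 19, at the higher in 4 and at the same base in 1. In the other 360 displaced pairs it was lower in 172 and higher in 180. Among the 32 pairs 1 bp apart with the NKD1 signal above the NKD2 signal, the NKD1 summit was lower in 15 and higher in 17. The split was seen after the values were known and was not tested. Without strands it has no direction relative to the bound sequence.

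Of the 2 NKD1 peaks with a signal of 205, the one on chromosome 7 had a −log10 q of 49.1 and the one on chromosome 2, whose summits coincide, one of 17.2; in NKD2 the values were 26.5 at a signal of 120 and 8.74 at a signal of 140. The site on chromosome 2 thus had the higher NKD2 signal and the weaker q-value of these sites in both lists.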
